A study of Mus musculus with 8 samples.

Results

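The genes described here encode subunits of cohesin, condensin and the SMC5/6 complex, the ring-shaped machines that hold, fold and repair chromosomes. They were a fixed list of 10 genes, Smc1a, Smc3, Rad21 and Stag2 for cohesin, Smc2, Smc4, Ncapg and Ncapd2 for condensin, and Smc5 and Smc6 for the third complex, matched by symbol among the 55335 genes of the deposited table. All 10 were found, and all 10 stood at 1 FPKM or more in all 8 libraries, with a lowest value of 2.58 FPKM and a highest of 52.8 FPKM. FPKM divides the fragments of a gene by its transcript length and by the library's total, so levels of different genes can be compared with each other.

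RNA came from the mouse line RAW264.7, which grows as macrophage-like cells, kept with a bone scaffold for 3 days. One group was kept with hydroxyapatite doped with magnesium ions (HA/Mg) and the other with the Trio-Active bone scaffold (TABS). Each had 4 libraries, numbered as replicates 5 to 8. Every value compares TABS with HA/Mg: cells without a scaffold were not analysed here, the labels do not list the components of TABS, and separate cultures are not stated for the replicates. The p-values therefore set the difference between groups only against the spread of these libraries, and that spread may be technical. Groups were taken from the titles, while the library names use the letter H for TABS and L for HA/Mg. If the titles were exchanged, all directions given here would turn round. The libraries had 9908 to 10280 genes at 1 FPKM or more. Of 10 macrophage markers 8 averaged 1 FPKM or more, and their summed level was 2147 to 2513 FPKM with TABS and 1816 to 2247 FPKM with HA/Mg, while Mrc1 and Marco were near 0. Of 6 osteoclast markers 1, Dcstamp, reached that mean, Calcr was at 0, and their sum was 2.14 to 3.80 FPKM with TABS and 2.03 to 2.55 FPKM with HA/Mg. Markers of T cells, B cells, fibroblasts and osteoblasts, endothelial and epithelial cells summed to at most 0.560 FPKM for any of these lists in any library.

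SMC proteins are long coiled-coil ATPases that pair at a hinge and close into a ring with a kleisin subunit. Cohesin, closed by RAD21 and completed by a STAG subunit, holds sister chromatids together from S phase until anaphase and, in interphase, extrudes the chromatin loops that stop at CTCF sites. Condensin compacts chromosomes for mitosis in forms I and II, which share SMC2 and SMC4 and differ in their other subunits. SMC5/6 acts in DNA repair and in the handling of joined or stalled replication structures, and restricts some viral DNA. In dividing macrophage lines all of these complexes serve the cell cycle, and cohesin also serves the gene regulation of the resting cell.

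On GRCm38 and the GENCODE M21 annotation all 10 genes are protein-coding, and the values are over whole genes. The cohesin genes are Smc1a (ENSMUSG00000041133, chrX:152016428-152062694, plus strand), Stag2 (ENSMUSG00000025862, chrX:42149317-42277185, plus strand), Smc3 (ENSMUSG00000024974, chr19:53600398-53645833, plus strand) and Rad21 (ENSMUSG00000022314, chr15:51962240-51991747, minus strand). The condensin genes are Smc2 (ENSMUSG00000028312, chr4:52439243-52488260, plus strand), Smc4 (ENSMUSG00000034349, chr3:69004738-69034623, plus strand), Ncapg (ENSMUSG00000015880, chr5:45669919-45700546, plus strand) and Ncapd2 (ENSMUSG00000038252, chr6:125168007-125191701, minus strand). Smc5 (ENSMUSG00000024943, chr19:23206451-23273897, minus strand) and Smc6 (ENSMUSG00000020608, chr12:11265886-11319785, plus strand) complete the list. Ncapg shares exon sequence with 1 gene on the other strand that reached 1 FPKM in at least 4 libraries, Lcorl, whose mean was 1.0 FPKM with TABS and 1.44 FPKM with HA/Mg, and whether counting used strand is not stated in the labels. A processed pseudogene, Gm29763, matched Smc3 over 616 bases at 94.5% identity and was listed at 0 FPKM.

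Promoter windows, from 250 bases before to 50 bases after the annotated start, were in the RefSeq table (GRCm38.p6) for 7 of the 10 genes. They were searched on both strands for CCAAT, for TTTGAA and TTTAAA, letters of the cell cycle homology region found in many mitotic promoters, for the E2F-type words TTCCCGCC, TTTGGCGC and GCGGGAAA, and for TATAAA. The 3 condensin windows and that of Smc1a are shown, since these are the 4 windows that hold CCAAT, and those of condensin include Ncapd2, the gene with the smallest change. They lie at chr4:52438971-52439270 (plus strand), chr5:45669675-45669974 (plus strand), chr6:125191537-125191836 (minus strand) and chrX:152016178-152016477 (plus strand), each written 5′ to 3′ on the gene's own strand, with matches in either orientation in capitals.
Smc2 promoter: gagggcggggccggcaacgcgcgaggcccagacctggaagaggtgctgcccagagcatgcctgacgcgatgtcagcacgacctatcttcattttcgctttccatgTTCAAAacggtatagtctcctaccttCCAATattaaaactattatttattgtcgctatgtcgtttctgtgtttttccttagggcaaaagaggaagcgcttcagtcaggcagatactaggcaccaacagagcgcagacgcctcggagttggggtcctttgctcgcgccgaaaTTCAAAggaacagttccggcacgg
Ncapg promoter: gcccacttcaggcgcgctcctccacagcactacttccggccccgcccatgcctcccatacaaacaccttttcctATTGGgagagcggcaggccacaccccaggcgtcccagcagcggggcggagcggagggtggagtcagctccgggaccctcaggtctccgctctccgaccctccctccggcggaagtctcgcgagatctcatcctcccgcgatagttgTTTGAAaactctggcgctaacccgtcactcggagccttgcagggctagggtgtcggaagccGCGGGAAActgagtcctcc
Ncapd2 promoter: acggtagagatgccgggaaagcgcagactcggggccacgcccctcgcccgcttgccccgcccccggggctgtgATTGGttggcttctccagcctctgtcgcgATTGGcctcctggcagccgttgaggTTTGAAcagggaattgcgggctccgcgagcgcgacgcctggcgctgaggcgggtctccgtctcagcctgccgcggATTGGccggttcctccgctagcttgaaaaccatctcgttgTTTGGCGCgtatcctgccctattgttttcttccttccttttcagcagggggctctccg
Smc1a promoter: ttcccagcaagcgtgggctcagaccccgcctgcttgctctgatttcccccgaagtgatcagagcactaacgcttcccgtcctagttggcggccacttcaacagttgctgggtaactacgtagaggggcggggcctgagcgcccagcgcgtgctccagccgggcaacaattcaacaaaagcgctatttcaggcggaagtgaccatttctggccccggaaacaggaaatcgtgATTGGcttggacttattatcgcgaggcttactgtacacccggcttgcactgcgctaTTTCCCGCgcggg
CCAAT was in 4 of the 7 windows (Smc2, Ncapg, Ncapd2 and Smc1a), against 37.4% of 32851 windows in the table. TTTGAA was also in 4 (Smc2, Ncapg, Ncapd2 and Smc6), against 17.9%. GCGGGAAA was in the windows of Ncapg and Smc1a, against 1.07%, and TTTGGCGC in that of Ncapd2, against 0.514%. TTCCCGCC (2.19% of all windows), TTTAAA (13.2%) and TATAAA (13.6%) matched none of the 7, and no matches in the 7 windows overlapped. All 3 condensin windows held both CCAAT and TTTGAA, while the windows of Smc3 and Smc5 held no match. Smc4, the remaining condensin gene of the list, had no window to search, nor had Rad21 and Stag2. The Smc5 window (chr19:23272550-23272849, minus strand) lies inside the gene as GENCODE annotates it, with its 5′ end at 23273897. Its lack of matches may therefore not describe that start. These matches are letters in a window, with no measurement of binding.

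All 10 genes were lower in cells kept with TABS and 0 were higher. The changes ranged from 1.14-fold for Ncapd2 to 1.53-fold for Smc4, and for each gene the 4 TABS libraries lay below the 4 HA/Mg libraries. All 10 passed limma's test on log2(FPKM + 1) with Benjamini-Hochberg adjustment over the 10161 genes tested (adjusted p of 0.00851 to 0.0432), where 13.1% of all genes tested were lower with TABS, 5.07% were higher, 18.1% changed in either direction and 15.0% had every TABS library below every HA/Mg library. The log2 changes, TABS minus HA/Mg on that scale, had a median of -0.38 over the 10 genes, against -0.04 over all genes tested. In RNA from whole cultures, fewer cells in a given phase and less of a transcript per cell cannot be told apart. Leaving out HA/Mg replicate 5 or HA/Mg replicate 7 left 6 of the 10 calls, with Stag2, Ncapd2, Smc5 and Smc6 no longer passing. Lower calls over all 10161 genes fell as well, from 1327 to 321 and 347 in these fits.

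**Figure D1:**
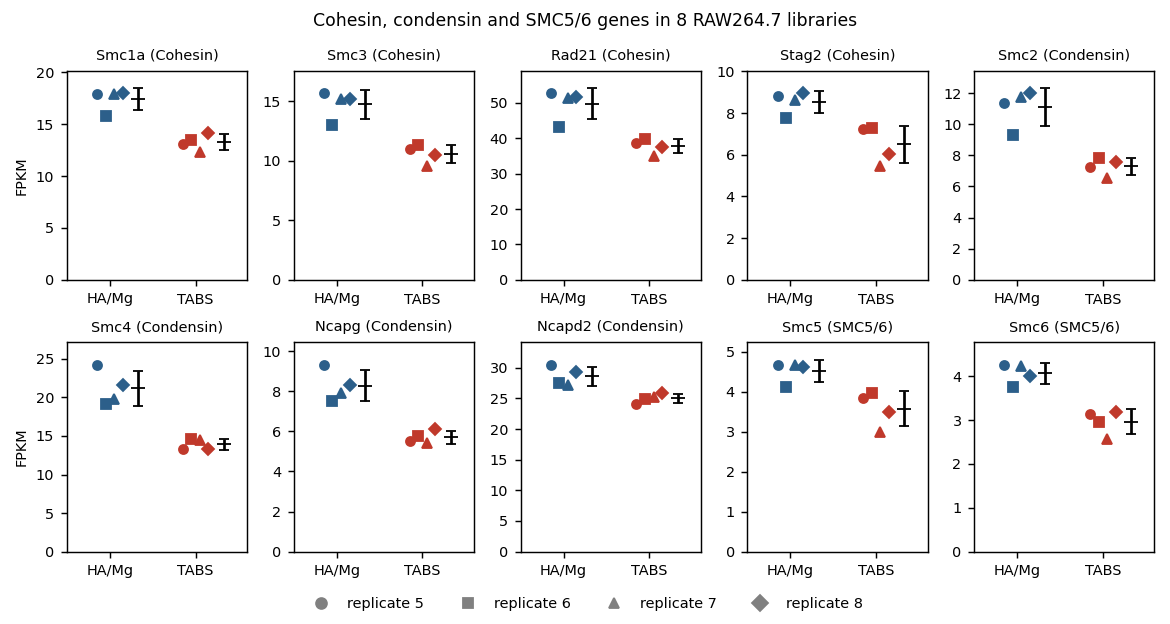
FPKM of each of the 10 genes (y axes, from 0) in the 4 HA/Mg libraries (blue) and the 4 TABS libraries (red), with a symbol for each replicate number and black bars for the mean and SD. In every panel the TABS points lie below the HA/Mg points, with little space between the groups for Stag2, Smc5 and Ncapd2.

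The cohesin genes had log2 changes between -0.44 and -0.36, with a median of -0.38. Rad21, the kleisin that separase cleaves at anaphase, was the most abundant of the 10, at 38.7, 39.9, 35.1 and 37.4 FPKM with TABS and 52.8, 43.3, 51.4 and 51.8 FPKM with HA/Mg (here and below in the order of replicates 5 to 8). The means were 37.8 ± 2.03 and 49.8 ± 4.41 FPKM (SD, n = 4 each), and the log2 change was -0.39 ± 0.07 (SE, limma adjusted p = 0.0122). HA/Mg replicate 6 was the lowest HA/Mg library and still lay above all TABS libraries.

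Smc3, the SMC subunit whose acetylation locks cohesin on DNA, was 10.95, 11.3, 9.52 and 10.5 FPKM with TABS and 15.7, 13.0, 15.2 and 15.2 FPKM with HA/Mg, a log2 change of -0.44 ± 0.07 (adjusted p = 0.00984). Smc1a, its partner in the ring, was 13.1, 13.5, 12.3 and 14.2 FPKM with TABS and 17.9, 15.8, 17.9 and 18.0 FPKM with HA/Mg, a log2 change of -0.37 ± 0.06 (adjusted p = 0.00984). For both, TABS replicate 7 was the lowest library and HA/Mg replicate 6 the lowest of its group. Stag2, the more abundant of the STAG subunits of somatic cells here, was 7.24, 7.28, 5.47 and 6.02 FPKM with TABS and 8.81, 7.78, 8.64 and 8.96 FPKM with HA/Mg (log2 change -0.36 ± 0.09, adjusted p = 0.0283). Its groups came closest at TABS replicate 6 and HA/Mg replicate 6. The Stag2 call ended when any 1 of 5 libraries was left out (replicates 7 and 8 of TABS and 5, 7 and 8 of HA/Mg), and when low genes were kept in the fit (adjusted p = 0.0571).

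Condensin had the widest range of change, from -0.57 to -0.19 on the log2 scale, with a median of -0.50. Smc4, an SMC subunit of both condensins, was 13.3, 14.6, 14.5 and 13.3 FPKM with TABS and 24.2, 19.2, 19.8 and 21.6 FPKM with HA/Mg. It had the largest change of the 10 genes, -0.57 ± 0.07 (adjusted p = 0.00851). Its partner Smc2 was 7.23, 7.82, 6.54 and 7.59 FPKM with TABS and 11.4, 9.33, 11.8 and 12.0 FPKM with HA/Mg, a log2 change of -0.54 ± 0.08 (adjusted p = 0.00869), or 1.52-fold lower. For both SMC subunits the gap between the groups was wider than the range of the TABS libraries.

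Ncapg and Ncapd2 belong to condensin I alone and gave the smaller changes of the 4 condensin genes. Ncapg, a HEAT-repeat subunit, was 5.51, 5.78, 5.41 and 6.14 FPKM with TABS and 9.33, 7.51, 7.94 and 8.34 FPKM with HA/Mg, a log2 change of -0.46 ± 0.07 (adjusted p = 0.00859). Ncapd2, the other HEAT-repeat subunit, was 24.1, 24.9, 25.2 and 25.9 FPKM with TABS and 30.5, 27.6, 27.1 and 29.3 FPKM with HA/Mg, a log2 change of -0.19 ± 0.05 (adjusted p = 0.0318). HA/Mg replicate 7 was its lowest HA/Mg library, unlike the other 9 genes, for which that was HA/Mg replicate 6. The Ncapd2 call ended when any 1 library but TABS replicate 8 or HA/Mg replicate 6 was left out, and with median-of-ratios scaling of the libraries (adjusted p = 0.0935).

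The SMC5/6 genes were the lowest in level and had a median log2 change of -0.31. Smc6 was 3.13, 2.97, 2.58 and 3.19 FPKM with TABS and 4.26, 3.75, 4.23 and 4.0 FPKM with HA/Mg, a log2 change of -0.35 ± 0.07 (adjusted p = 0.0143). Smc5 was 3.84, 3.97, 2.98 and 3.49 FPKM with TABS and 4.67, 4.12, 4.67 and 4.62 FPKM with HA/Mg, a log2 change of -0.28 ± 0.08 (adjusted p = 0.0432). Its groups were separated by less than the range within either of them. The Smc5 call ended when any 1 library but replicate 6 of either group was left out, and when low genes were kept in the fit (adjusted p = 0.0818). These low genes are shrunk most by the 1 FPKM added before the log: with 0.1 FPKM added the medians were -0.39 for SMC5/6, -0.40 for cohesin and -0.56 for condensin. By the ratio of mean FPKM, Smc5 was 1.27-fold and Smc6 1.37-fold lower, beside 1.31-fold for Smc1a, 1.32-fold for Rad21 and Stag2 and 1.40-fold for Smc3. The medians describe 4, 4 and 2 genes, and the differences between complexes were not tested.

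By level over all 8 libraries the order was Rad21 (43.8 FPKM), Ncapd2 (26.8), Smc4 (17.6), Smc1a (15.3), Smc3 (12.7), Smc2 (9.21), Stag2 (7.52), Ncapg (7.00), Smc5 (4.05) and Smc6 (3.51 FPKM). Each gene lay above the next in all 8 libraries except for 3 neighbouring pairs. Smc4 exceeded Smc1a in 7 of 8 libraries, Smc2 exceeded Stag2 in 7 and Stag2 exceeded Ncapg in 6, so the order within these pairs was not the same in every library. The spacing of low values implied about 327 to 4822 fragments per gene and library, a counting error of 1.79% to 5.53% at each gene's lowest library. These are estimates, because only 28.8% to 30.4% of low values came out as whole fragments (tolerance 0.05), and they cover counting error only.

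Ratios between subunits, taken inside each library, put cohesin and condensin parts on a scale that any common factor of the library leaves unchanged. Smc1a stood at 1.26 ± 0.079 times Smc3 with TABS and 1.18 ± 0.031 times with HA/Mg (SD, n = 4 each; exact two-sided permutation p = 0.143). Smc2 stood at 0.526 ± 0.053 of Smc4 with TABS and 0.526 ± 0.059 with HA/Mg, a log2 difference of -0.00046 ± 0.11 (SE; exact permutation p = 1). The ratio ranged from 0.450 to 0.572 over the TABS libraries and from 0.469 to 0.595 over the HA/Mg libraries, so it varied more within the groups than between them. Stag2 was 4.97 ± 0.32 times its paralog Stag1 with TABS and 4.73 ± 0.44 times with HA/Mg (exact permutation p = 0.371), and Smc5 was 1.2 ± 0.10 and 1.11 ± 0.028 times Smc6 (exact permutation p = 0.171).

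Condensin I was set against condensin II by a pair of ratios. Ncapg, of condensin I, stood at 0.796, 0.806, 0.850 and 0.862 of Ncapg2, its counterpart in condensin II, in TABS replicates 5 to 8, and at 0.946, 0.965, 0.813 and 0.884 in HA/Mg replicates 5 to 8. These groups overlapped (exact permutation p = 0.114). Ncapd2 stood at 2.41, 2.46, 2.51 and 2.68 times its counterpart Ncapd3 with TABS and at 2.21, 2.33, 2.13 and 2.27 times with HA/Mg. This ratio was higher in all 4 TABS libraries than in any HA/Mg library, with a log2 difference of 0.17 ± 0.04 (SE, two-sided exact permutation p = 0.0286, the lowest value possible with 4 and 4 libraries). Adjusted over the 6 ratios that p was 0.171, the lowest that 1 ratio alone can reach with these libraries. A single ratio could therefore not pass after adjustment, however well it separated the groups. Within that limit 0 of the 6 ratios passed the exact permutation test after adjustment, with 1 at an unadjusted p under 0.05. With library trends on length and GC content taken out, as described next, the log2 difference of Ncapd2 to Ncapd3 was -0.00023 (exact permutation p = 1).

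**Figure D2:**
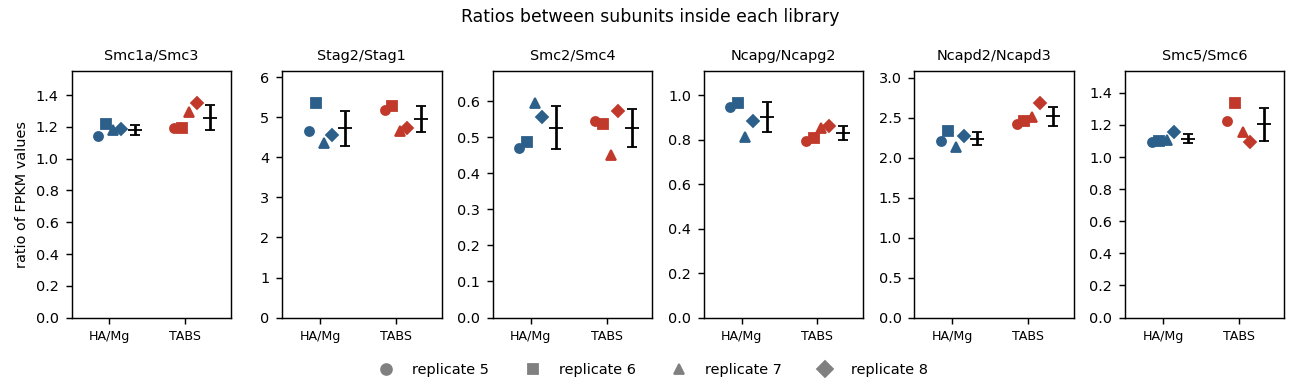
Ratios of the FPKM values of 2 subunits inside each library (y axes, from 0), with HA/Mg in blue, TABS in red, a symbol for each replicate number and black bars for the mean and SD. Only the ratio of Ncapd2 to Ncapd3 separates the groups, at 2.41 to 2.68 with TABS and 2.13 to 2.33 with HA/Mg, and Smc2 to Smc4 has the same mean in both.

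Most of these transcripts are long and poor in G and C, and GC-poor genes were more often lower with TABS. The longest transcripts ran from 3956 bases (Rad21) to 6171 bases (Stag2), against a median of 3039 bases over the genes tested. GC content was 34.8% for Ncapg, 38.1% for Stag2, 38.7% for Smc5, 39.7% for Smc2, 40.2% for Smc4, 40.4% for Smc6, 42.3% for Smc3, 44.3% for Rad21, 46.9% for Smc1a and 54.0% for Ncapd2, against a median of 49.8%. In a division of the tested genes into 5 GC classes of equal size, 7 of the 10 lay in the lowest class, where 30.8% of all genes were lower with TABS. Smc1a and Rad21 lay in the second class, where 21.3% were lower, and Ncapd2 in the fourth, where 3.00% were lower. No member lay in the third or the highest class, where 9.26% and 0.935% were lower. The median log2 change was -0.20 in the lowest class and -0.12 in the second, and each member of those classes lay below its class median.

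**Figure D3:**
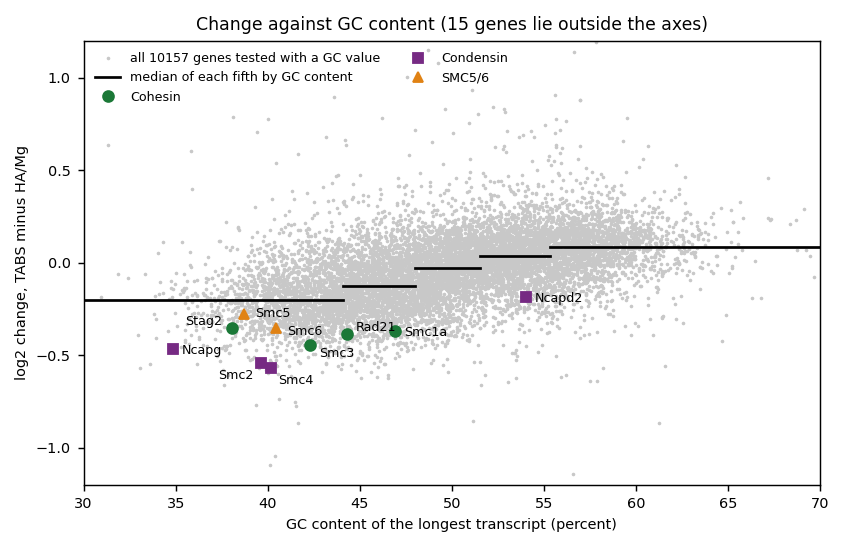
Log2 change (TABS minus HA/Mg, y axis) against the GC content of the longest transcript in percent (x axis) for the genes tested (grey), with the median of each of 5 equal GC classes (black) and the 10 genes in colour by complex; 15 genes lie outside the axes. All but 1 of the 10 genes sit to the left, between 34.8% and 46.9% GC, below the medians of their classes, and Ncapd2 sits apart at 54.0%.

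When smooth trends on length and GC content were taken out of each library, 6 of the 10 genes were still lower at a limma adjusted p under 0.05, against 3.78% of all genes. These were Smc1a, Smc3 and Rad21 of cohesin and Smc2, Smc4 and Ncapg of condensin, with adjusted p of 0.0162 to 0.0453. Smc2 was at -0.32 ± 0.04 (adjusted p = 0.0162), Smc4 at -0.36 ± 0.07 (adjusted p = 0.0319) and Ncapg at -0.25 ± 0.06 (adjusted p = 0.0453). The cohesin core genes were close together, with Smc3 at -0.24 ± 0.04, Smc1a at -0.24 ± 0.04 and Rad21 at -0.22 ± 0.04 on the log2 scale.

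The other 4 genes did not pass. Ncapd2 kept its size, at -0.19 ± 0.05 both as deposited and after removal, with an adjusted p of 0.0626 after it. Stag2 went to -0.12 ± 0.06 (adjusted p = 0.217), Smc6 to -0.13 ± 0.05 (adjusted p = 0.159) and Smc5 to -0.04 ± 0.05 (adjusted p = 0.614). The median log2 change was then -0.23 for cohesin, -0.29 for condensin and -0.09 for SMC5/6. The 6 calls depended on which libraries were kept: the count was 6 without HA/Mg replicate 6 and 5 without TABS replicate 8. With TABS replicate 7 left out it was 2, and with TABS replicate 5 left out 1. With TABS replicate 6 or any 1 of HA/Mg replicates 5, 7 and 8 left out it was 0. Calls over all genes moved as well, from 384 lower to 41, 10, 42 and 299 without TABS replicates 5 to 8. Without HA/Mg replicates 5 to 8 they were 5, 862, 10 and 17. In the 4 fits that called 0 members limma's smallest adjusted p among the 10 was 0.0515 to 0.0576. There 7 or 8 of the 10 lay at an unadjusted p under 0.05, but the share over all genes was not computed for those fits. With all 8 libraries 8 of the 10 lay under it, beside 2798 of all 10157 genes.

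**Figure D4:**
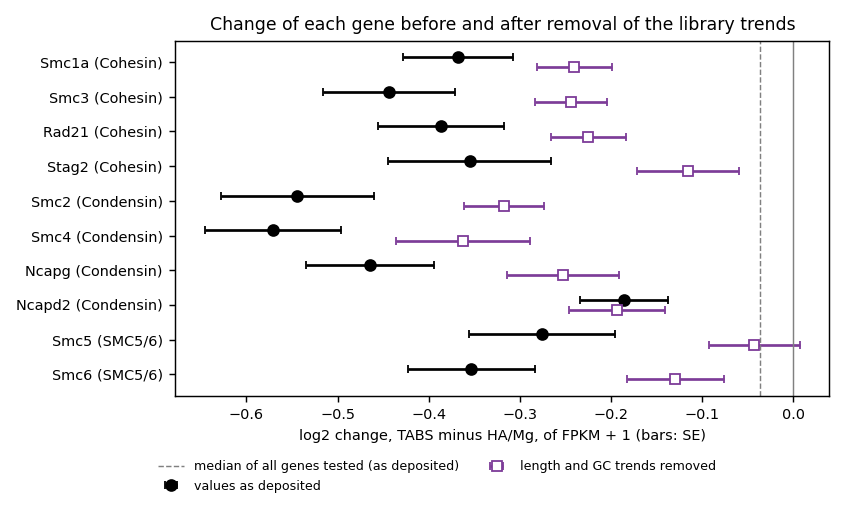
Log2 change of FPKM + 1, TABS minus HA/Mg, with its SE (x axis) for each gene (y axis), in the values as deposited (filled circles) and once length and GC trends of every library were taken out (open squares); the dashed line is the median of all genes tested as deposited. All genes but Ncapd2, which stays at -0.19, move toward 0, and Smc5 reaches -0.04.

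The libraries of a group were not alike. The mean deviation of the 4 cohesin genes from their own averages over the 8 libraries, on the log2(FPKM + 1) scale, was 0.26, 0.04, 0.23 and 0.25 in HA/Mg replicates 5 to 8 and -0.14, -0.11, -0.33 and -0.20 in TABS replicates 5 to 8. For condensin it was 0.34, 0.09, 0.19 and 0.27 with HA/Mg and -0.26, -0.18, -0.25 and -0.19 with TABS. HA/Mg replicate 6 was thus the HA/Mg library nearest to TABS for both complexes, and TABS replicate 7 was the lowest for cohesin. For SMC5/6 the TABS libraries were at -0.08, -0.09, -0.33 and -0.13, so TABS replicate 7 stood apart there. With the length and GC trends taken out HA/Mg replicate 6 was at 0.08 for cohesin, below the other HA/Mg libraries (0.10 to 0.13). For condensin it was at 0.14, inside their range (0.09 to 0.22). In these values 7 of the 10 genes had no overlap between the groups. The share over all genes was not computed, so nothing about the members can be drawn from this count.

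**Figure D5:**
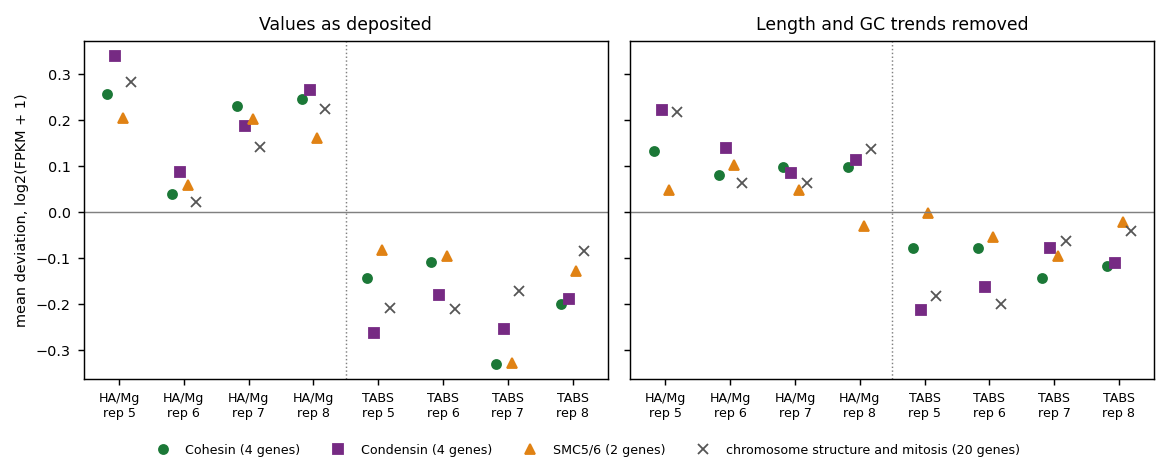
Mean deviation of each gene list from its genes' own averages, on the log2(FPKM + 1) scale (y axis), in the 4 HA/Mg and 4 TABS libraries (x axis), as deposited (left) and with the length and GC trends taken out (right). On the left HA/Mg replicate 6 is the HA/Mg library nearest to 0 for all 4 lists, and on the right SMC5/6 lies near 0 in most libraries, with HA/Mg replicate 8 at -0.03.

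The other subunits followed their complexes in part. Over all genes 13.1% were lower as deposited and 3.78% with the length and GC trends taken out. Of 5 further cohesin subunits only Stag1 was expressed enough to be tested, and it was lower (1.30 against 1.82 FPKM, log2 change -0.29, adjusted p = 0.0367). With the length and GC trends taken out it was at -0.07 and did not pass (adjusted p = 0.345). Smc1b, Stag3, Rad21l and Rec8, which serve meiotic cohesin, were listed at or near 0. Of the 4 remaining condensin subunits 3 were lower: the kleisin of condensin I, Ncaph (18.7 against 23.1 FPKM, adjusted p = 0.0273), and the condensin II subunits Ncapd3 (9.95 against 12.8 FPKM, adjusted p = 0.00940) and Ncapg2 (6.90 against 9.21 FPKM, adjusted p = 0.0170). Ncaph2, the kleisin of condensin II, did not pass (53.3 ± 2.99 against 52.5 ± 1.30 FPKM, adjusted p = 0.785) and had the highest level of any condensin gene. With the length and GC trends taken out Ncapg2 alone of these 4 passed (adjusted p = 0.0438).

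Of 6 tested non-SMC subunits and loaders of SMC5/6 only Slf1, which brings the complex to damaged DNA, was lower (1.41 against 1.99 FPKM, adjusted p = 0.0236). Nsmce1, a ring-finger subunit, was at 39.1 ± 3.26 FPKM with TABS and 36.9 ± 1.74 FPKM with HA/Mg (adjusted p = 0.389), and Nsmce4a, the kleisin, at 10.3 ± 0.533 and 10.98 ± 0.401 FPKM (adjusted p = 0.254). Slf2, a partner of Slf1, was at 2.43 ± 0.508 and 3.5 ± 0.872 FPKM, a log2 change of -0.38 ± 0.16, larger than that of Smc5 or Smc6 but with a wider error (adjusted p = 0.122). Nsmce2 and Nsmce3 did not pass either (adjusted p = 0.206 and 0.246). With the length and GC trends taken out 0 of the 6, and neither Smc5 nor Smc6, passed limma's test. Of the SMC-related ATPases Smchd1, which acts in X inactivation and silencing, was lower (3.37 against 4.65 FPKM, log2 change -0.37, adjusted p = 0.0182) but did not pass with the trends taken out (-0.15, adjusted p = 0.0808). Rad50, of the MRE11 repair complex, did not pass (4.33 ± 0.395 against 5.23 ± 0.453 FPKM, adjusted p = 0.0716).

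Of 14 genes that load, release, acetylate, protect or cleave cohesin, or stop it on DNA, 6 were lower, against 13.1% of all genes. With TABS 0 of them were higher and 8 did not pass. A negative log2 change, found in 5866 of the 10161 genes tested, was found in 13 of the 14. On the log2(FPKM + 1) scale those with the largest changes were the centromere protectors Sgo2a (1.67 against 2.93 FPKM, log2 change -0.56 ± 0.08, adjusted p = 0.00851) and Sgo1 (3.28 against 5.02 FPKM, -0.49 ± 0.11, adjusted p = 0.0186). The S-phase acetyltransferase Esco2 was at 1.18 against 1.99 FPKM (adjusted p = 0.0411, with overlapping groups), and the release factor Wapl at 14.8 against 20.1 FPKM (adjusted p = 0.0195). By the ratio of mean FPKM, Esco2 (1.70-fold) was above Sgo1 (1.53-fold). Sgo1, Esco2 and Wapl did not pass with the trends taken out (adjusted p = 0.0952, 0.153 and 0.0539). Ctcf, which marks the borders of cohesin loops, and Esco1 were the other lower genes and are named outside the rule for named genes. Ctcf was at 8.20 ± 0.402 against 10.8 ± 0.539 FPKM (adjusted p = 0.00898) and with Sgo2a was lower with the length and GC trends taken out as well (adjusted p = 0.0228 and 0.0319).

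The loader Nipbl was at 3.94 ± 0.678 against 5.31 ± 0.754 FPKM and did not pass (adjusted p = 0.0639), and its partner Mau2 was at 5.11 ± 0.462 against 4.84 ± 0.569 FPKM (adjusted p = 0.595). Cdca5, or sororin, which opposes Wapl, was at 21.3 ± 0.390 against 22.3 ± 1.40 FPKM (adjusted p = 0.400). Separase, Espl1, did not pass (adjusted p = 0.0565), nor did its inhibitor securin, Pttg1 (adjusted p = 0.793). These 5 genes are named outside the rule, after their values were seen, for their place in the cohesin cycle.

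Genes of chromosome structure and mitosis moved in the same direction. Of 20 genes 16 were lower and 0 higher, against 13.1% and 5.07% of all genes tested. The median log2 change was -0.29, against -0.04 over all genes tested. With the length and GC trends taken out 10 were lower, against 3.78% of all genes. The 4 that did not pass in the values as deposited were Ccnb1, Cdc20, Aurka and Birc5 (limma adjusted p of 0.0517 to 0.815). The largest changes on the log2(FPKM + 1) scale were those of Mki67 (10.7 against 17.1 FPKM), the kinetochore motor Cenpe (2.17 against 3.80 FPKM), the spindle motor Kif11 (4.87 against 7.45 FPKM) and the kinetochore protein Cenpf (0.921 against 1.75 FPKM), with adjusted p of 0.00859 to 0.0245. Their mean deviation was 0.28, 0.02, 0.14 and 0.23 in HA/Mg replicates 5 to 8 and -0.21, -0.21, -0.17 and -0.08 in TABS replicates 5 to 8. The part of cell cycle state in the values of the 10 genes was not tested. Over the 6 lists of partner and mitotic genes together, 28 of 47 tested genes were lower and 0 higher (13.1% and 5.07% of all genes). After removal of the trends 13 were lower (3.78% of all genes).

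Genes outside these lists with the profile most like each complex were found by the root mean square difference between deviations over the 8 libraries, among 10104 genes. They were chosen for their likeness, so their values carry no test. For cohesin they were Tra2b, a splicing regulator (5.27 against 7.39 FPKM), Pcm1, a centriolar satellite protein (4.54 against 6.17 FPKM), and Ppwd1 (2.86 against 3.98 FPKM), at differences of 0.027 to 0.030. For condensin they were Nxt2, an RNA export cofactor (14.3 against 19.6 FPKM), Tpx2, a spindle assembly factor (30.2 against 40.9 FPKM), and Pdcl (5.71 against 8.02 FPKM), at 0.035 to 0.041. For SMC5/6 they were Rbm25, a splicing regulator (3.05 against 4.07 FPKM), Crot, a peroxisomal carnitine acyltransferase (3.24 against 4.19 FPKM), and 6820431F20Rik (7.00 against 8.80 FPKM), at 0.026 to 0.028.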

How the data were processed

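RNA-seq libraries of RAW264.7 cells were compared, 4 with TABS and 4 with HA/Mg. The authors deposited FPKM values for 55335 Ensembl identifiers, of which 55154 matched the GENCODE M21 annotation of GRCm38. Per the labels' protocols, RNA was extracted with TRIzol and sequenced as 150-base paired ends. Per the submitters' processing notes, fastp, STAR, DESeq2 and the build GRCm38 were used. Versions, roles and the tool behind the FPKM values: not given in the sources used here. FPKM keeps differences between libraries in the recovery of long or GC-poor transcripts.

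limma 3.58.1 (R 4.3.3), with its trend option, was run on log2(FPKM + 1) for the 10161 genes that reached 1 FPKM in 4 or more of the 8 libraries. Tests were two-sided, and adjusted p under 0.05 (Benjamini-Hochberg) was called a change. This scale understates the change of low genes, and fold changes are ratios of mean FPKM. Ratios of subunits were tested by exact two-sided permutation over the 70 assignments of 4 against 4 libraries. Trends on length and GC content of the longest transcript were removed from each library with natural splines of 4 degrees of freedom, over 10157 genes. The limma fit was tested on simulated data, with noise drawn separately for each gene and no length or GC trend. That test therefore does not cover the trend removal. The spacing of low values implied 19700000 to 23500000 fragments per library. Copies of the 10 transcripts were sought with BLAST 2.17.0 (at least 85% identity over 150 bases).

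The members, lists and tests were chosen with earlier results of these data known. Named genes were the 10 members, the subunits in the ratios, per list up to 4 changed genes, by size of change (or, with none, the 2 of smallest p), and the 3 genes nearest in profile to each complex. Further genes of the partner lists were named outside that rule, after their values were seen. These were Smc1b, Stag3, Rad21l, Rec8, Ncaph2, Nsmce1, Nsmce2, Nsmce3, Nsmce4a, Slf2, Rad50, Ctcf, Esco1, Nipbl, Mau2, Cdca5, Espl1 and Pttg1. From the mitotic list Ccnb1, Cdc20, Aurka and Birc5 were named in the same way. Alternatives were pseudocounts of 0.1 and 0.5, no filter or 5 FPKM, other scalings and moderation, the replicate number as a block, trend removal, and each library left out in turn. Protein sequences were not used here.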

Additional observations from a re-analysis of the deposited data

Results flagged for a closer look

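In 3 genes 1 HA/Mg library lay far from the other 3, by Dixon's test at its 95% critical value. Smc1a was 15.8 FPKM in HA/Mg replicate 6 against 17.9 to 18.0 FPKM in the others (gap over range 0.952), Rad21 was 43.3 against 51.4 to 52.8 FPKM (0.852) and Smc5 was 4.12 against 4.62 to 4.67 FPKM (0.897). Without that library all 10 genes were lower with TABS (limma adjusted p of 0.00319 to 0.0222), beside 2452 of the 10161 genes tested. With all 8 libraries all 10 passed too, beside 1327 genes. HA/Mg replicate 6 was the lowest HA/Mg library for 9 of the 10 genes, so leaving it out could only widen their differences. The ratio of Smc5 to Smc6 was 1.154 in HA/Mg replicate 8 against 1.10 in the others (0.862). In all, 32 groups were examined and 4 were marked, where chance marks about 1 group in 20 if groups are independent. They were not independent: the 3 genes were marked in the same library, and the marked ratio uses Smc5.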

How the results depend on the processing

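All 10 log2 changes stayed negative in 198 values under other settings, with the call kept in 152 and lost in 46. Most of these signs were fixed in advance, because each gene had every TABS library below every HA/Mg library. Leaving out a library, or another pseudocount, filter, moderation or the block, could not turn them. Only the scalings and the trend removal could have. The number of members lower with TABS was 8 to 10 under the other pseudocounts, filters, scalings and moderations (8 with no filter on low values, and 8 of 8 at a minimum of 5 FPKM, which left Smc5 and Smc6 out), 6 to 10 with 1 library left out, and 6 with the length and GC trends removed (then 1, 0, 2 and 5 without TABS replicates 5 to 8 and 0, 6, 0 and 0 without HA/Mg replicates 5 to 8, settings chosen after the data were seen). The number of changed genes was 1842 (1327 lower, 515 higher), 1087 with no filter, 647 with the trends removed and 429 to 3320 with 1 library left out (429, 3320, 475 and 694 when HA/Mg replicates 5, 6, 7 and 8 were dropped, and 858, 1143, 943 and 1227 when TABS replicates 5, 6, 7 and 8 were). The share of calls that were higher was 28.0%, against 45.5% with median-of-ratios scaling (1033 lower, 862 higher), 40.3% with quantile normalization (1192 lower, 806 higher) and 13.9% after rescaling to equal sums (1550 lower, 251 higher). With the trends removed, lower calls over all genes were 41, 10, 42 and 299 without TABS replicates 5 to 8. They were 5, 862, 10 and 17 without HA/Mg replicates 5 to 8. The median log2 changes moved to -0.23 for cohesin, -0.29 for condensin and -0.086 for SMC5/6 with the trends removed, with or without the block.

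Same-numbered libraries did not deviate together (correlations of deviations from the group means of 0.011, -0.27, -0.16 and 0.13 for replicates 5 to 8, across genes), so the numbers were not taken as pairs. Between libraries of different number the correlations ran from -0.25 to 0.38, the highest for TABS replicate 7 with HA/Mg replicate 6. Blocked on the replicate number, limma called 0 genes and 0 members (smallest adjusted p 0.0589, with 2987 genes and all 10 members at an unadjusted p under 0.05), and with the trends removed as well also 0 and 0 (smallest adjusted p 0.0565, with 2223 genes and 7 members at an unadjusted p under 0.05).

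The subunit ratios stayed at 0 of 6 passing under every setting run. A single ratio could not pass after adjustment in any of these settings, so this count says little about stability. The difference of Smc2 to Smc4, -0.00046, was 0.0027 and 0.014 with pseudocounts of 0.1 and 0.5, 0.061 with quantile normalization, 0.045 with the trends removed and -0.053 to 0.073 with 1 library left out. That of Stag2 to Stag1, 0.072, was -0.018 with a pseudocount of 0.5, -0.070 with quantile normalization and -0.044 with the trends removed, and that of Ncapd2 to Ncapd3, 0.17, was -0.00023 with the trends removed. The cause of these changes was not tested. Depth limits Smc5 and Smc6 most, at a counting error of 5.11% and 5.53% in their lowest library.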
